A study of Mus musculus with 6 samples.

Results

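Mitochondrial ribosomal protein genes were read in liver-resident macrophages, the Kupffer cells, from mice with and without Trem2. Members are the protein-coding genes of the deposited count table whose symbol starts with Mrpl or Mrps followed by a digit. The rule finds 78 of the 54532 genes in the table and of its 22046 protein-coding genes, 49 named for the large subunit (Mrpl) and 29 for the small subunit (Mrps). The study compared 3 libraries of Trem2-deficient mice (Trem2_KO) with 3 libraries of wild-type littermates (WT). TREM2 is a macrophage surface receptor that binds lipids. All mice were male, were 8 weeks old when a high fat diet began and had 8 weeks of it, so no group without the diet is compared. The deleted part of Trem2 is likewise not given in the sources used here. No label states that each library is 1 mouse, so the p-values reflect spread among these libraries, part of which may be technical.

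Mitochondria carry their own ribosome, which translates the small set of respiratory chain subunits encoded by mitochondrial DNA. Its ribosomal RNAs come from that DNA, while all of its proteins are encoded in the nucleus, made in the cytosol and imported. Some of these proteins descend from the bacterial ribosome and others exist only in mitochondria. The large subunit forms peptide bonds and holds the exit tunnel, and the small subunit decodes the messenger RNA.

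Promoter stretches of 8 members are shown because a short motif recurs in promoters of this family, and so that members that fell and a member that did not can be set beside each other. Each line gives the 120 bases before the RefSeq transcription start, 5′ to 3′ on the strand of the gene, with coordinates in GRCm38.p6. Capitals mark the core motif of ETS family factors, CCGGAAG, or its reverse complement CTTCCGG. The first 5 genes fell in Trem2_KO and hold a match in this stretch, Mrpl50 and Mrps25 fell and hold none, and Mrps10 had the highest log2 change of all members and holds none. Of these 5, Mrpl27, Mrps26 and Mrpl34 kept the call in 10, 7 and 4 of 14 fits with other settings. The choice does not show how often the motif occurs. From 250 bases before to 50 after the start, 13 of 49 members not called also hold a match. Mrps18b (log2 change 0.11) is among these 13, and none of them is printed.
Mrpl3 (chr9:105053148-105053267, + strand): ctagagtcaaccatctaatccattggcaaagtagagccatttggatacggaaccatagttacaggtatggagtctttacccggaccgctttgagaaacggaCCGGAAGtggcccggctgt
Mrpl51 (chr6:125192080-125192199, + strand): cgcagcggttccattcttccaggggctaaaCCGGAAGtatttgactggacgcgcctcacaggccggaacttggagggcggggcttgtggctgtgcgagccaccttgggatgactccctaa
Mrpl27 (chr11:94653671-94653790, + strand): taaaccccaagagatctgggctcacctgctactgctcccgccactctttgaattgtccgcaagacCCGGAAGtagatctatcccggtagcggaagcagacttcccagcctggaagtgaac
Mrpl34 (chr8:71464806-71464925, + strand): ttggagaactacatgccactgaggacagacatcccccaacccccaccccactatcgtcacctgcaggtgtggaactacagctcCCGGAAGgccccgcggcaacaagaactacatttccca
Mrps26 (chr2:130563637-130563756, + strand): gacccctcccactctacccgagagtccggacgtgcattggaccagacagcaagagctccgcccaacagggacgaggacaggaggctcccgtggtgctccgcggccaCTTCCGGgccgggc
Mrpl50 (chr4:49521084-49521203, - strand): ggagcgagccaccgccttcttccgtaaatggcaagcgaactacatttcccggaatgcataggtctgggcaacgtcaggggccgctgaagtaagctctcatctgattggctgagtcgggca
Mrps25 (chr6:92184024-92184143, - strand): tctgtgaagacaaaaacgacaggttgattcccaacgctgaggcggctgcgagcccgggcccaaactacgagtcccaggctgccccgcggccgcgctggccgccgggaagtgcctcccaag
Mrps10 (chr17:47369077-47369196, + strand): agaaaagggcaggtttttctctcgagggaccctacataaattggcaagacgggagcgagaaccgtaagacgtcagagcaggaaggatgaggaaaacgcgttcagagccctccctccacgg
A match is a description of the letters and not a site or a cause.

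Libraries held 15799351 to 17135603 counts each. Pearson r of log2 CPM (the count scaled to library size) across genes was 0.9917 to 0.9931 within a group and 0.9819 to 0.9842 between groups. Trem2 was read at 84.7, 90.0 and 84.2 CPM in WT libraries against 16.6, 17.3 and 14.5 CPM in Trem2_KO. The log2 change came to -2.42 (SE 0.064, edgeR adjusted p = 1.6e-35, n = 3 per group), in the direction of the labels in every library. In bulk RNA, fewer cells of a type and less RNA per cell cannot be told apart.

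Of 77 members tested, 21 fell and 0 rose at an edgeR adjusted p under 0.05. Members called lower made up 27.3% of those tested, against 15.1% of all 13776 genes tested (30.3% in either direction, 15.3% higher). The log2 change was below 0 for 72 members, against 51.0% of all genes. It was above 0 for Mrpl37, Mrpl1, Mrps15, Mrps18b and Mrps10. The median log2 change of the members was -0.17, with quartiles of -0.25 and -0.10, and that of all genes was -0.01. All 3 Trem2_KO libraries lay below all 3 WT libraries for 28 members (36.4%), against 20.7% of all genes. The opposite order held for 1 member, Mrps10, against 20.9% of all genes. Single members had a median SE of 0.0945 on the log2 scale, so a fall of the median size is less than 2 SE for a typical member.

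The members were also compared library by library. Relative to the WT mean of each gene, the median member stood at -0.00, 0.05 and -0.03 (log2) in the WT libraries and at -0.18, -0.14 and -0.21 in the Trem2_KO libraries. Every Trem2_KO library thus stood below every WT library in the median. In the Trem2_KO libraries 49, 43 and 56 of the 77 members lay below all WT libraries. The same count was not made over all genes, so these counts have no background here. The count of called members depended on which libraries entered the fit. It was 11 without WT replicate 2 (14.3%, against 11.7% of all genes). Without each other library in turn it was 14 to 22 (18.2% to 28.6%, against 11.7% to 13.8%). DESeq2 called 11 members lower (14.3%, against 10.7% of all genes), all of them among the 21. Once a trend of change with gene length was removed, 12 members were called lower (15.6%, against 13.3% of all genes, a share near the background), and 66 of the 77 were below 0.

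**Figure D1:**
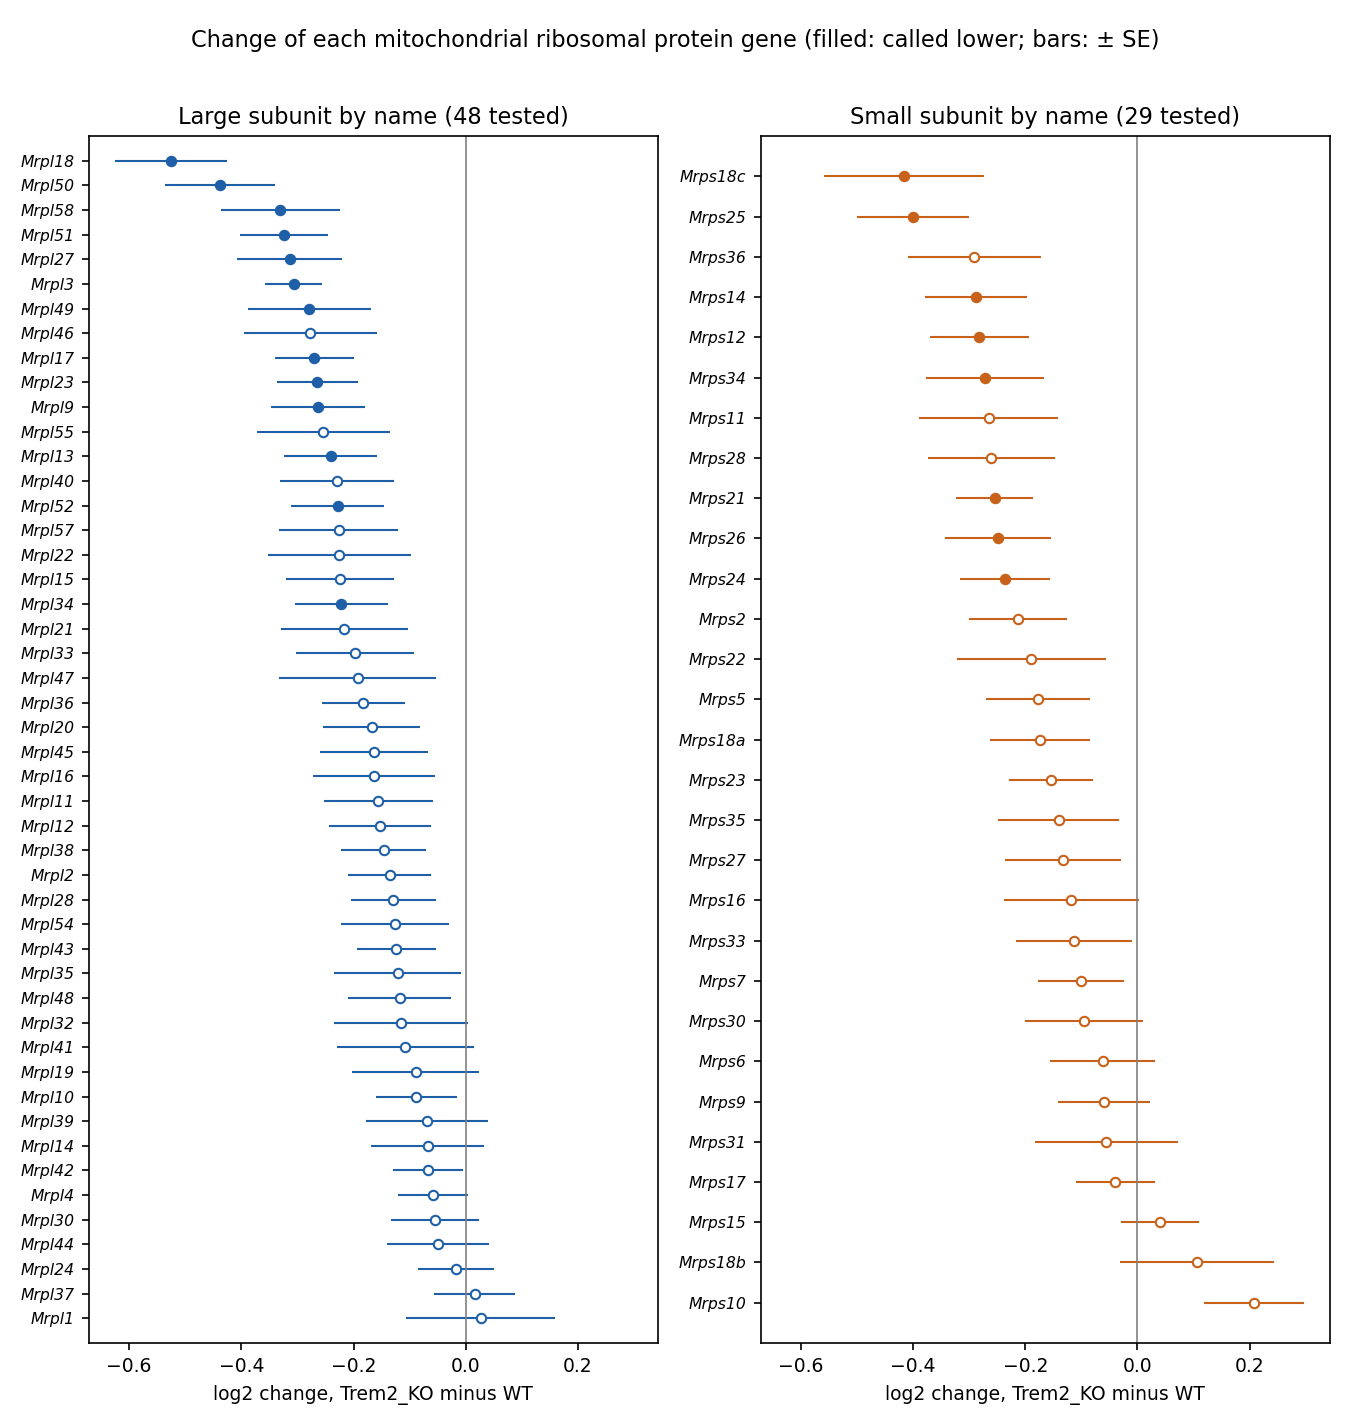
Log2 change (Trem2_KO minus WT, x axis, bars show SE) of each of the 77 tested members, by subunit. Of these, 72 lie left of 0, and the 21 called lower run from -0.53 for Mrpl18 to -0.22 for Mrpl34.

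Among large subunit proteins, 13 of 48 tested members fell (27.1%) and none rose, with a median log2 change of -0.17. Mrpl18 (ENSMUSG00000057388, chr17:12911349-12916345), a homologue of a bacterial protein of the central protuberance, was read at 16.8, 16.7 and 19.5 CPM in WT libraries against 12.2, 11.5 and 13.1 CPM in Trem2_KO. The log2 change came to -0.53 (SE 0.10, adjusted p = 3.73e-05), the largest fall of any member. The lowest WT library of Mrpl18 lay above the highest Trem2_KO library. Mrpl50 (ENSMUSG00000044018, chr4:49512596-49521093), found only in mitochondrial ribosomes, was read at 16.5, 18.4 and 17.04 CPM in WT libraries against 12.8, 12.3 and 13.2 CPM in Trem2_KO. The log2 change came to -0.44 (SE 0.0977, adjusted p = 0.000355), again with no overlap of the groups. Mrpl58 is a peptidyl-tRNA hydrolase built into the subunit that frees stalled mitochondrial ribosomes. Its levels of 16.5, 14.3 and 14.0 CPM in WT libraries against 13.1, 11.2 and 11.3 CPM in Trem2_KO gave a log2 change of -0.33 (SE 0.106, adjusted p = 0.0135). These groups did not overlap, but the call was lost in DESeq2 and without WT replicate 1, Trem2_KO replicate 2 or Trem2_KO replicate 3.

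Mrpl3 (ENSMUSG00000032563, chr9:105053239-105079888) is a core protein close to the peptidyl transferase centre and had the highest CPM of all members. It was read at 76.7, 75.3 and 70.5 CPM in WT, a mean of 74.2 ± 3.27 (SD, n = 3). In Trem2_KO it was read at 60.0, 61.3 and 58.5 CPM, a mean of 60.0 ± 1.41 (SD, n = 3). The log2 change was -0.31 (SE 0.0505, adjusted p = 2.49e-06), the smallest adjusted p of the family, and the groups lay well apart. Mrpl51, a mitochondria-specific protein, was read at 28.2, 29.1 and 27.2 CPM in WT libraries against 23.4, 24.5 and 19.7 CPM in Trem2_KO (log2 change -0.32, SE 0.0784, adjusted p = 0.001). Mrpl27, a homologue of a bacterial protein that reaches towards the peptidyl transferase centre, was read at 18.8, 21.6 and 18.4 CPM in WT libraries against 16.3, 16.8 and 14.1 CPM in Trem2_KO (log2 change -0.31, SE 0.0934, adjusted p = 0.00752). Neither gene's groups overlapped, but the call of Mrpl27 was lost with the length trend removed and without WT replicate 2 or Trem2_KO replicate 3.

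A pair of proteins at the exit tunnel also fell. Mrpl17 went from 31.4, 33.7 and 35.8 CPM in WT to 26.7, 28.002 and 29.1 CPM in Trem2_KO (log2 change -0.27, adjusted p = 0.00198). Mrpl23 went from 31.2, 29.6 and 31.0 CPM to 26.1, 23.8 and 26.5 CPM (log2 change -0.26, adjusted p = 0.00326). They were named because they belong to the 7 members called lower in the 14 other fits run, with Mrpl18, Mrpl50, Mrpl51, Mrpl3 and Mrps25, a choice made after their values were seen. The other large subunit members called lower were Mrpl9, Mrpl13, Mrpl34, Mrpl49 and Mrpl52, with log2 changes between -0.28 and -0.22. The groups of Mrpl49 and Mrpl52 overlapped. Mrpl34 kept its call in only 4 of the 14 other fits and Mrpl49 in 6.

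**Figure D2:**
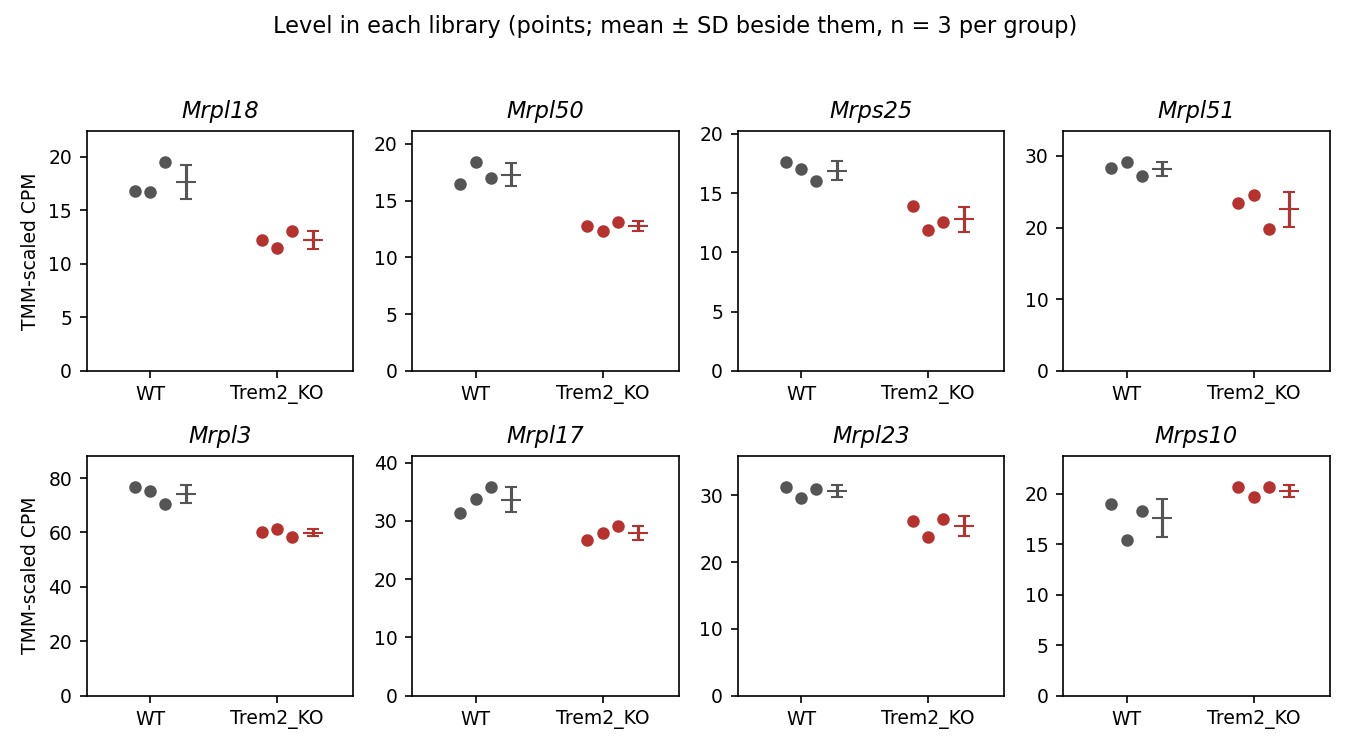
TMM-scaled CPM (y axis, from 0) of 8 members in each WT and Trem2_KO library, with mean ± SD beside the points (n = 3 per group). The groups do not overlap in any panel, with Trem2_KO lower for 7 genes (Mrpl3, 74.2 to 60.0 CPM) and higher for Mrps10.

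Among small subunit proteins, 8 of 29 members fell (27.6%) and none rose, with a median log2 change of -0.17. Mrps25 (ENSMUSG00000014551, chr6:92169525-92184033), found only in mitochondrial ribosomes, was read at 17.6, 17.05 and 16.02 CPM in WT libraries against 13.9, 11.9 and 12.6 CPM in Trem2_KO. The log2 change came to -0.40 (SE 0.0993, adjusted p = 0.00129) with no overlap. Mrps25 shares 69.8% of its annotated exon bases with Nr2c2 on the other strand, which rose by 0.42 on the log2 scale, and its reads cannot be told from those of Nr2c2 without the strand setting. Mrps18c (chr5:100798627-100804471), a homologue of bacterial S18, was read at 7.14, 7.47 and 7.60 CPM in WT libraries against 5.83, 5.39 and 5.41 CPM in Trem2_KO. The log2 change was -0.42 (SE 0.143, adjusted p = 0.0218), the largest fall in the small subunit, and it kept its call in 7 of the 14 other fits.

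Mrps12, the protein of the decoding centre, was read at 23.1, 22.2 and 19.1 CPM in WT libraries against 17.7, 18.5 and 16.7 CPM in Trem2_KO (log2 change -0.28, SE 0.0882, adjusted p = 0.0112). Mrps14, another protein with a bacterial homologue, was read at 19.3, 20.9 and 20.2 CPM in WT libraries against 14.7, 18.2 and 16.6 CPM in Trem2_KO (log2 change -0.29, SE 0.0907, adjusted p = 0.0118). Mrps21 was read at 32.1, 34.5 and 32.1 CPM in WT libraries against 28.1, 27.2 and 27.4 CPM in Trem2_KO (log2 change -0.25, SE 0.0685, adjusted p = 0.00305). For each of these genes every Trem2_KO library was below every WT library. The calls of Mrps12 and Mrps21 were lost with the length trend removed. Mrps12 also lost its call without WT replicate 1 or Trem2_KO replicate 3, and Mrps14 without WT replicate 2 or Trem2_KO replicate 1. Mrps34, specific to mitochondria, was read at 15.0, 14.8 and 13.1 CPM in WT libraries against 11.3, 11.5 and 12.8 CPM in Trem2_KO, a log2 change of -0.27 (SE 0.105, adjusted p = 0.044). It shares 77.8% of its exon bases with Mapk8ip3 and Nme3, and Mapk8ip3, on the other strand, rose by 0.33 on the log2 scale. Mrps34 kept its call in 5 of the 14 other fits. The remaining calls were Mrps24 and Mrps26. The count of 8 dropped to 3 without WT replicate 2 (10.3%, against 11.7% of all genes) and to 5 without Trem2_KO replicate 1 (17.2%, against 12.5%). It was 4 in DESeq2 (13.8%, against 10.7%) and 3 with the length trend removed (10.3%, against 13.3%), so in the first and last of these fits the small subunit's share was not above that of all genes.

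Large and small subunits had like median changes, and the difference was not tested. Their medians were -0.166 and -0.174. The spread of a subunit's median between libraries, combined over both groups, was 0.0555 and 0.0815 (log2). This spread is the square root of the sum of the WT and the Trem2_KO variance of the library medians. The summed level of large subunit members was 1035, 1065 and 1007 CPM in WT libraries against 924.5, 922.1 and 902.6 CPM in Trem2_KO. That of small subunit members was 512.7, 532.4 and 504.9 CPM in WT libraries against 468.0, 477.5 and 452.0 CPM in Trem2_KO. Neither sum overlapped between the groups. Scaled to gene length, the large sum was 2.052, 2.016 and 2.02 times the small sum in WT and 2.062, 2.004 and 2.053 times in Trem2_KO. These ratios, 2.03 ± 0.0197 and 2.04 ± 0.0312 (SD, n = 3), overlapped. The count of 13 large subunit calls dropped to 8 without WT replicate 2 (16.7%, against 11.7% of all genes), to 8 without Trem2_KO replicate 3 (16.7%, against 12.5%) and to 7 in DESeq2 (14.6%, against 10.7%).

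**Figure D3:**
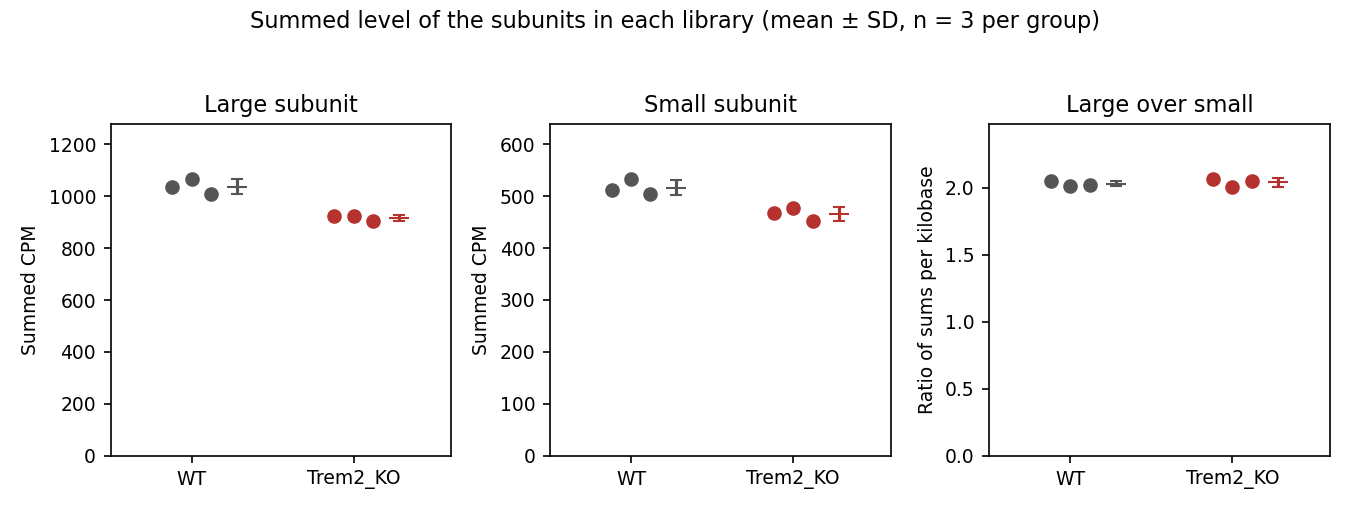
Summed CPM of large and of small subunit members and the ratio of their sums per kilobase (y axes, from 0) in each library, with mean ± SD (n = 3 per group). Both sums are lower in every Trem2_KO library, and the ratios overlap at 2.03 ± 0.0197 in WT and 2.04 ± 0.0312 in Trem2_KO.

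Names do not always give the place of a protein. Mrps30 and Mrps18a sit in the large subunit despite their names, and Mrps36 is known as a component of the 2-oxoglutarate dehydrogenase complex. None of these passed the test: Mrps30 had a log2 change of -0.10 (adjusted p = 0.544), Mrps18a of -0.17 (adjusted p = 0.138) and Mrps36 of -0.29 (adjusted p = 0.0566). With members placed by position, 13 of 50 large (26.0%) and 8 of 26 small subunit members (30.8%) were called lower, and both medians were -0.166. Split by origin, 13 of 45 members with a bacterial homologue (28.9%, median -0.18) and 8 of 30 mitochondria-specific members (26.7%, median -0.15) fell. Of the 3 paralogues of bacterial S18, Mrps18c fell, while Mrps18a and Mrps18b, the latter with a log2 change of 0.11 (adjusted p = 0.608), did not pass the test. The split by origin counted Mrps18a and Mrps18b as mitochondria-specific, although they are S18 paralogues, and left out Mrps36 and Mrpl55 as unclassified.

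On chromosome 17, which carries Trem2, 5 members lie within 20 Mb of it. Over all genes 30.3% were called in either direction, against 0 of these 5 members, too few to judge a share. The nearest, Mrps10 (ENSMUSG00000034729, chr17:47368887-47381417, 0.978 Mb away), a homologue of bacterial S10, ran against the family. It was read at 19.0, 15.5 and 18.3 CPM in WT libraries against 20.7, 19.6 and 20.6 CPM in Trem2_KO, so all Trem2_KO libraries were above all WT libraries. The log2 change was 0.21 (SE 0.0892, adjusted p = 0.0714). It passed the threshold with total counts in place of TMM scaling, with a stricter filter and without WT replicate 1, and was 0.12 without WT replicate 2. A pseudogene of Mrps10 annotated on the same chromosome (AC154457.3, chr17:65438128-65438697) held 0 reads in each WT library and 11, 8 and 8 reads in the Trem2_KO libraries. A count of 0 allows up to 3 reads in a library, and this covers counting error only. The pseudogene was singled out after its counts were seen, it was not tested, and the assignment of reads that fit both copies is likewise not given in the sources used here.

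The other 4 members near Trem2 gave overlapping groups. Mrpl2 (1.70 Mb away), a core large subunit protein, had a log2 change of -0.14 (adjusted p = 0.172). Mrps18a lay 2.24 Mb away. Mrpl14 (2.66 Mb away) was read at 17.8, 16.5 and 18.3 CPM in WT libraries against 20.1, 15.6 and 14.3 CPM in Trem2_KO, with 1 Trem2_KO library above all others. Mrps18b (12.4 Mb away) was read at 6.57, 6.77 and 8.75 CPM in WT libraries against 8.31, 7.52 and 7.93 CPM in Trem2_KO. Outside this stretch, 21 of 72 members (29.2%) were called lower, with a median of -0.18. Mrpl18 and Mrps34 lie on chromosome 17 at 35.4 and 23.5 Mb from Trem2.

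Levels of different members were compared per kilobase of gene length in WT. Mrps21 stood highest at 44.5 ± 1.86 CPM per kilobase (SD, n = 3), followed by Mrpl34 at 36.3 ± 0.502. Mrpl43 at 24.95 ± 1.49, Mrpl36 at 24.1 ± 1.70, Mrpl52 at 24.0 ± 2.98 and Mrpl2 at 23.6 ± 0.631 came next and lay within each other's spread. Of these 6 members, Mrps21, Mrpl34 and Mrpl52 fell, while Mrpl43 (log2 change -0.12), Mrpl36 (log2 change -0.18) and Mrpl2 did not pass the test. In the small subunit Mrps12 (20.6 ± 2.04), Mrps15 (17.5 ± 1.10), Mrps23 (17.3 ± 0.576) and Mrps28 (16.7 ± 2.23) followed Mrps21, the last 3 within each other's spread. Mrps15 and Mrps23 had log2 changes of 0.04 and -0.15, and Mrps28 of -0.26 (adjusted p = 0.0753), none of them called.

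Among tested members the lowest levels per kilobase were those of Mrps35 at 1.57 ± 0.137 and Mrpl47 at 1.79 ± 0.213, whose spreads overlapped. Mrps30 at 2.04 ± 0.230, Mrps22 at 2.05 ± 0.103, Mrpl1 at 2.07 ± 0.243 and Mrpl33 at 2.10 ± 0.314 lay within each other's spread. None of these 6 was called. Mrpl1, with a log2 change of 0.03 (SE 0.132), turned below 0 without WT replicate 2 or 3 or Trem2_KO replicate 2 or 3. Gene length in the table, by which these levels were divided, ran from 607 to 8631 bases among the members. The ranks therefore lean on this length: Mrps28 and Mrps35 had like mean WT levels of 13.1 and 13.5 CPM. Their lengths of 783 and 8631 bases set them apart per kilobase. Whether the annotated length is that of the transcripts present was not tested. Tested members held between 89 and 1203 reads per library, with a median of 280.5.

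Mrpl53 (chr6:83109040-83109939) had 0 reads in all 6 libraries and was not tested. A count of 0 allows 0.173 to 0.192 CPM per library. Its annotated exons share 88.0% of their bases with Gm42688 on the same strand and Ccdc142os on the other, and Gm42688 was read at 1.76 to 2.10 CPM. Pseudogenes of the family numbered 10, of which 7 held reads, and the highest, Mrpl23-ps1, held 135 reads over the 6 libraries.

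Calls over all genes moved with gene length. Among all genes tested, 20.8% of the shortest genes were called lower, then 18.8%, 12.8% and, among the longest, 7.84%, in 4 groups of equal size by length. Members called lower were 11 of 39 (28.2%), 3 of 15 (20%), 3 of 11 (27.3%) and 4 of 12 (33.3%) in the same length groups. Member medians were -0.18, -0.16, -0.12 and -0.19, against -0.09, -0.05, 0.01 and 0.08 for all genes. The members were short, with a median length of 2255 bases among those tested against 3968 for all genes tested. With the length trend removed the calls dropped from 21 to 12, and the medians of large and small subunit members were -0.113 and -0.147 in place of -0.166 and -0.174. Of 25 members that overlap another tested gene, 9 fell (36.0%), and of 52 that do not, 12 fell (23.1%, median -0.16). By annotated exons, 45 tested members share no base with another gene, and 8 of them fell (17.8%, near the 15.1% of all genes). The part of overlap in these calls was not tested.

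**Figure D4:**
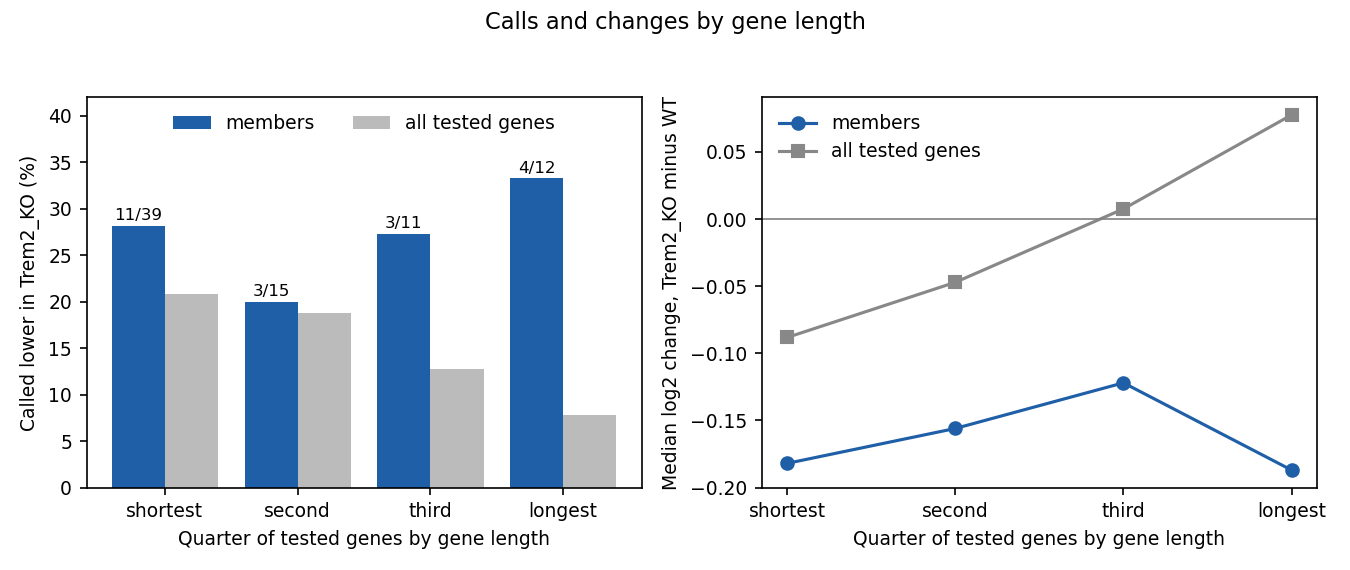
Members beside all tested genes in 4 groups by gene length (x axis, shortest to longest), as the percent called lower and as the median log2 change. All genes drop from 20.8% to 7.84% called lower with length, while members run from 20% to 33.3%.

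Several members share a promoter region with a gene on the other strand, so each pair gives a comparison at 1 place. A neighbour starting within 1000 bases was found for 18 members, of which 6 fell (33.3%, against 27.3% of all tested members and 15.1% of all genes). Of these neighbours 3 fell (Ncapd2, Psma2 and Fau) and 2 rose (Pnpla7 and Zfp661), with a median of -0.06. These shares, 16.7% and 11.1%, were near the 15.1% and 15.3% of all genes. Both genes of the pair fell for Mrpl51 with Ncapd2, a condensin subunit (log2 changes -0.32 and -0.40, starts 100 bases apart), and for Mrpl49 with Fau (-0.28 and -0.10, 137 bases). Mrpl50, Mrps12, Mrps18c and Mrps34 fell next to Zfp189, Sars2, Helq and Eme2, which did not pass the test. The neighbours had log2 changes of -0.02, -0.12, -0.13 and 0.10. Whether the members of a pair differ from each other was not tested.

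**Figure D5:**
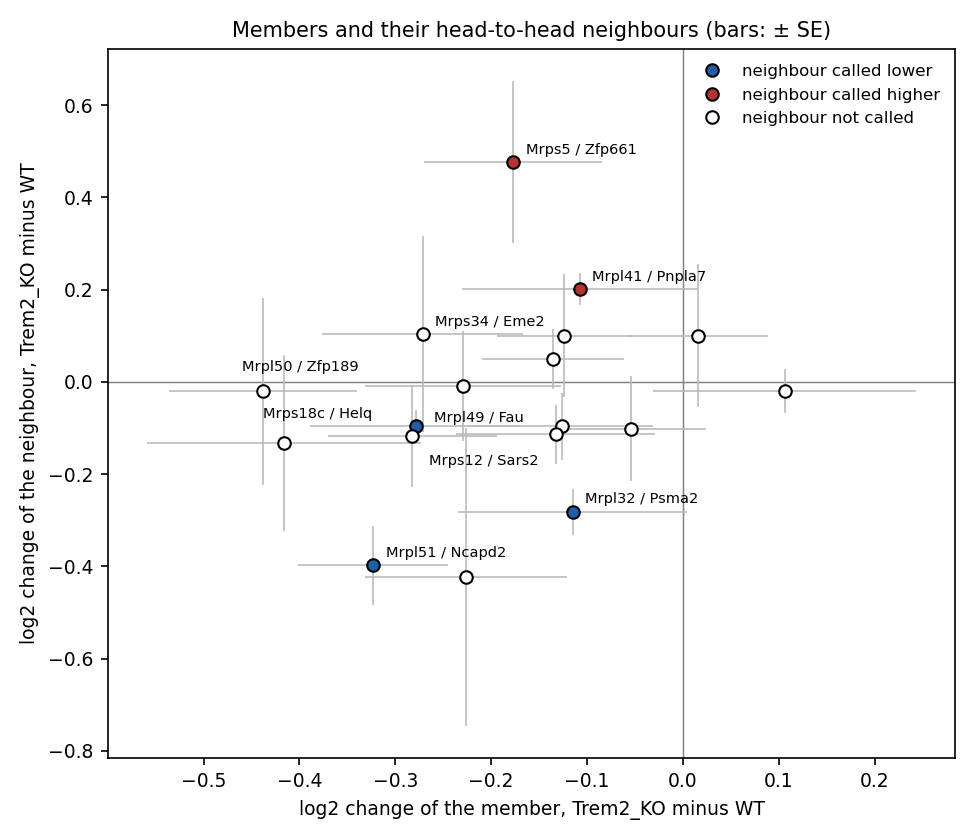
Log2 change (Trem2_KO minus WT) of 18 members (x axis) and of the neighbour that starts within 1000 bases on the other strand (y axis), with bars for SE. Members lie left of 0 in 16 of 18 pairs, whereas neighbours scatter around a median of -0.06 with 3 lower and 2 higher.

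RefSeq promoter windows of 300 bases, from 250 before to 50 after the start, were found for 69 members, which have 75 windows. The ETS core CCGGAAG, searched on both strands, was in 26 of them (34.7%), against 8.86% of all 32851 windows and 17.3% of those of tested genes. The NRF1 motif, GCGCA and GCGC with any 1 base between them, was in 17.3%, against 4.6% of all windows and 9.64% of those of tested genes. The YY1 motif AAGATGGCG was in 10.7%, against 1.4% and 3.0%. CCAAT was in 40.0% of member windows, against 37.4% and 38.0%, and TATAAA in 6.67%, against 13.6% and 7.72%. Matches of different motifs may overlap, and none of the shares was tested.

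The ETS core was also counted in members that fell and in the rest. It was in the window of 12 of 19 members called lower (63.2%) and of 13 of 49 tested members not called (26.5%). Over the 14 other fits the first share was 50% to 66.7% and the second 26.0% to 33.9%. Members with a match had a median log2 change of -0.23 (n = 25) and those without one of -0.14 (n = 43). Over all genes tested the share of windows with a match was 19.1% for those called lower, 18.5% for those not called and 11% for those called higher. The motif was looked at with the calls known, and the difference was not tested. In the stretches printed above the match lies 19 bases before the start of Mrpl3, 55 before that of Mrpl27 and 90 before that of Mrpl51.

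Few of the other genes of mitochondrial translation were called. The shares given here stand beside 15.1% lower and 15.3% higher over all genes. Of 5 mitochondrial ribosome proteins under other names, Chchd1, a small subunit protein, fell (log2 change -0.23, adjusted p = 0.0351), and 4 did not pass the test. Among those, Gadd45gip1 of the large subunit had a log2 change of -0.28 (adjusted p = 0.0607), while Dap3, a GTP-binding protein of the small subunit, had one of -0.01. Of 24 assembly factors tested 2 fell (8.33%), Rpusd4 (-0.24) and Mpv17l2 (-0.21), with a list median of -0.02. Of 13 translation factors 1 fell (7.69%), Tufm, the mitochondrial elongation factor that delivers aminoacyl-tRNA. It was read at 47.1, 51.2 and 53.8 CPM in WT libraries against 44.2, 42.7 and 47.5 CPM in Trem2_KO, 1 library of each group overlapping (log2 change -0.18, adjusted p = 0.0183).

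A list of 20 genes held mitochondrial aminoacyl-tRNA synthetases and the amidotransferase subunits Gatb, Gatc and Qrsl1. Of these 20 genes 1 fell (5.0%, against 15.1% of all genes), with a list median of -0.11. It was Lars2, which charges the leucine tRNA. Lars2 was read at 146, 164 and 121 CPM in WT libraries against 78.9, 96.98 and 83.73 CPM in Trem2_KO (log2 change -0.73, SE 0.152, adjusted p = 0.0285). Its groups did not overlap, and its SE was above the median of 0.0945 among the members. Of 17 genes of mitochondrial DNA expression 1 fell (5.88%), Slirp, an RNA-binding protein read at no more than 1.21 CPM in any library. Polg and Polg2, subunits of the mitochondrial DNA polymerase, rose by log2 changes of 0.13 and 0.37 (11.8% of that list, against 15.3% of all genes). Of 14 mitochondrially encoded genes none fell and 2 rose (14.3%, near the 15.3% of all genes), mt-Cytb (0.10) and mt-Nd5 (0.18). The 2 ribosomal RNAs of the mitochondrial ribosome did not pass the test, mt-Rnr1 at -0.22 and mt-Rnr2 at 0.04.

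Cytosolic ribosomal proteins, the nearest family by function, had many calls and a smaller median. Of 81 tested 31 fell (38.3%) and 1 rose, with a median log2 change of -0.09. Examples are Rplp1 (-0.25), Rpl10 (-0.19), Rps15a (-0.21) and Rps13 (-0.22). Their median WT level was 230 CPM and their median SE 0.0396, against 18.1 CPM and 0.0945 for the tested members of the mitochondrial family. With the length trend removed 12 fell (14.8%, near the 13.3% of all genes) and 5 rose. The difference between the families was not tested.

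Marker genes of cell types also moved between the groups, and their part in the members' calls was not tested. The counts given here stand beside 15.1% lower and 15.3% higher over all genes tested, and the lists are short. Of 8 Kupffer cell markers 6 fell, with sums of 41630 to 42940 CPM in WT libraries against 37580 to 38190 CPM in Trem2_KO. All 6 markers of dividing cells fell, from sums of 197 to 202.1 CPM to sums of 128.6 to 139.8 CPM. Of 9 sinusoidal endothelial markers 8 rose (726.6 to 737.9 against 815.2 to 824.8 CPM), and 3 of 4 monocyte markers rose (12.3 to 12.6 against 32.4 to 34.7 CPM). Of 8 hepatocyte markers 4 fell and 1 rose (1424 to 1494 against 1273 to 1322 CPM). Of 6 stellate cell markers 2 rose, while 4 had log2 changes below 0 without a call, for a list median of -0.27. Of 4 tested B cell markers 2 fell, and 1 lay above 0 without a call. Of 4 neutrophil markers 1 fell, Csf3r, and the 3 not called had mean WT levels of 1.04 to 2.02 CPM. Cd3e, Cd3d, Cd3g and Nkg7, markers of T and NK cells, were too low to be tested.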

How the data were processed

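Total RNA of sorted Kupffer cells was sequenced from Illumina TruSeq libraries, 3 per genotype. The counts the authors deposited are unnormalized whole numbers per gene. Per the submitters' processing notes, the tools were featureCounts (1.5.0-p3), DESeq2 (1.16.1) and the aligner HISAT2 (2.0.5), and the builds are listed as GRCm38 and mm10. The strand setting and the handling of reads shared by several genes, both not given in the sources used here, could move counts between overlapping genes or copies. A deposited FPKM table was not used.

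Counts of all genes went into edgeR 4.0.16 (R 4.3.3), with the filterByExpr filter, TMM scaling and the robust quasi-likelihood test with genotype as the only term. Calls required an adjusted p under 0.05 (Benjamini-Hochberg over 13776 genes). All adjusted p-values in the text are from this fit unless another tool is named. The standard error is the one implied by the F statistic. CPM is TMM-scaled, and levels per kilobase divide it by the gene length in the table. The fit was tested on simulated data.

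The members and lists were chosen with earlier results of these data known. Named members were the 6 largest called falls in each subunit, the 5 highest and 3 lowest levels per kilobase, those within 20 Mb of Trem2, those not tested, and members whose name and place differ; up to 4 genes of each list were named by smallest p. Alternatives were other scalings and filters, DESeq2 1.42.0, removal of a length trend by loess, the replicate number as a block, leaving out each library, and leaving out members near Trem2 or overlapping other genes. Promoter windows were taken from RefSeq (GRCm38.p6) and exon overlap from GENCODE annotation of GRCm38. The exon overlap, promoter motifs over alternatives and pseudogene counts were added after the data were seen.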

Additional observations from a re-analysis of the deposited data

How the results depend on the processing

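Median log2 changes kept their direction under every alternative run, from -0.2 to -0.113 for large and from -0.191 to -0.131 for small subunit members. Counts moved more. Against 21 members lower (27.3%, against 15.1% of all genes), DESeq2 gave 11 (14.3%, against 10.7%) and the length trend removed 12 (15.6%, against 13.3%). That trend removed with the replicate block gave 11 (14.3%, against 13.3%). Leaving out members that overlap other genes gave 12 (23.1%, against 15.1%). Leaving out single libraries gave 11 to 22 (14.3% to 28.6%, against 11.7% to 13.8%). Large subunit calls (13, 27.1%) were 7 in DESeq2 (14.6%, against 10.7% of all genes) and 8 without overlapping members. They were 8 to 15 without single libraries (16.7% to 31.2%, against 11.7% to 13.8%). Small subunit calls (8, 27.6%) were 4 in DESeq2 (13.8%, against 10.7% of all genes) and 3 with the length trend removed (10.3%, against 13.3%). With the replicate block added to that they were 2 (6.9%, against 13.3%). They were 4 without overlapping members and 3 to 7 without single libraries (10.3% to 24.1%, against 11.7% to 13.8%). Shares of each subunit without overlapping members were not computed. Members higher, all of them small subunit members, were 1 with total counts, 1 with the stricter filter (at least 50 reads in 3 libraries) and 0 to 1 without single libraries. Total counts called 16 members lower (20.8%, against 11.6% of all genes). The ratio of large to small subunit sums, Trem2_KO over WT, was 1.01, and 0.986 from mean log2 CPM; the cause was not tested. The 6 other mitochondrial lists held 6 genes lower: 2 with total counts, 2 in DESeq2, 2 with the length trend removed, 2 with the block as well, and 1 to 6 without single libraries. They held 4 genes higher: 2 without a filter, 2 in DESeq2, 8 with the length trend removed, 7 with the block as well, and 2 to 4 without single libraries. In the edgeR fit, 1 of the 5 ribosome proteins under other names was lower, too few to judge a share. In each of the other lists 0% to 8.33% of tested genes were lower, against 15.1% of all genes. Higher were 0% to 14.3% of each list, against 15.3%. Shares of these lists in the alternative fits were not computed. Cytosolic ribosomal proteins lower (31, 38.3%) were 20 with total counts (24.7%, against 11.6% of all genes). They were 12 with the length trend removed (14.8%, against 13.3%) and 14 with the block as well (17.3%, against 13.3%). Those higher (1) were 2, 5 and 8 in these fits, and 0 to 5 without single libraries. Neighbours higher (2) were 1 without a filter, 1 in DESeq2 and 1 to 2 without single libraries. Mrpl14 (-0.07) turned to 0.0377 with the length trend removed, 0.0308 with the block as well, and ran from -0.227 to 0.0319 without single libraries. Mrpl1 ran from -0.0687 to 0.169 and Mrps15 from -0.0135 to 0.0643 without single libraries. Over the named members and alternatives, a call was kept in 147 of 196 cases, and members not called were called in 9 of 238.

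The replicate block gave 22 members lower (28.6%, against 15.3% of all genes), 21 of them shared with the fit without it. No pairing by replicate number was seen: deviations of same-numbered libraries correlated at -0.00787, 0.00313 and 0.0361, and those of different-numbered libraries at -0.0264 to 0.0234. Low correlations do not show whether same-numbered libraries were handled together. Members held 89 to 1203 reads per library and had a median SE of 0.0945. The smallest fall called in the edgeR fit was -0.22 (Mrpl34, SE 0.0826), and no member with a smaller change was called. Mrpl36, for example, had a log2 change of -0.18 (SE 0.0745, edgeR adjusted p = 0.0569). Changes of that size or less were thus not resolved for single members.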
